A study of Mus musculus with 8 samples.

Results

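Chemokines are small secreted proteins, a few of them tethered to the membrane, that steer leukocytes by binding G protein-coupled receptors on their surface. The spacing of conserved cysteines divides them into CC, CXC, CX3C and XC ligands. In the gut, fibroblasts, endothelium, resident macrophages and the epithelium each make their own set, and some ligands are made at rest while others are switched on by interferon or by the transcription factor NF-kB.

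The chemokine ligand genes described here are all rows of the gene table whose symbol is Ccl, Cxcl, Cx3cl or Xcl followed by a number and at most 1 letter, a rule that uses no measured value. It takes 44 of 32285 rows, with 38 symbols, of which 24 name CC and 12 name CXC ligands. Cx3cl1 and Xcl1 complete the set. There were 5 symbols held by several rows (Ccl19, Ccl21a, Ccl21b, Ccl21c and Ccl27a). How well reads can be set apart between such copies was not tested, so their values are uncertain. Of Ccl19, Ccl21a and Ccl27a, 1 row each held 137, 4058 and 7787 transcripts, and their other rows held at most 1. In the cells kept, 8 rows had no transcript, 3 rows had 1 to 10 and 26 rows had over 1000. Pf4 and Ppbp, which are chemokines under older symbols, fall outside the rule and are given with the receptors.

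The data are 8 single-cell RNA-seq libraries from the colon of C57BL/6 mice, 2 libraries in each of 4 groups. The mice were young adult males with no genetic change. Assembloids are colon organoids grown with pre-cultured colon stromal cells in Matrigel on an orbital shaker, in medium without surrogate Wnt, CHIR-99021, R-spondin 1 and noggin. They gave 2 stromal libraries (EpCAM-negative cells, from 2 mice) and 2 epithelial libraries. Organoid epithelium came from organoids without stroma in full medium, which holds all of these factors. Both media hold EGF and A83-01. Tissue epithelium came from crypts freshly loosened from the colon with EDTA. The stromal cells had been expanded in serum before assembly, so the stroma holds the cells that survive that culture, and assembloids were dissociated with Liberase TL where organoids and tissue were not. The study describes both libraries of each group as biological replicates, and the labels do not say which animals each epithelial library came from.

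Cells kept numbered 9020 and 9048 in stroma, 29410 and 7722 in assembloid epithelium, 4872 and 8034 in organoid epithelium and 4692 and 4310 in tissue epithelium, at medians of 3444 to 35219 unique molecular identifiers (UMIs, 1 for each transcript molecule counted) per cell. In tissue, 38.7% and 25.4% of the deposited barcodes passed the filter on mitochondrial counts and genes, against 55.1% to 96.1% in the other libraries. No pair of libraries shared over 1.07% of the smaller library's barcodes. Levels are given as CPM, the UMIs of a gene for each 1000000 UMIs of the cells summed. The labels held, with Epcam at 941 to 2088 CPM in the 6 epithelial libraries and 111 and 23.8 CPM in stroma, and Col1a1 at 1132 and 1582 CPM in stroma, 58.5 and 72.3 CPM in assembloid epithelium and at most 0.03 CPM in organoids and tissue. Krt5, a keratin of squamous epithelium, stood at 356 CPM in the first and 25.4 CPM in the second stromal library, and Ptprc, the pan-leukocyte antigen, at 0.10 and 0.26 CPM. Stroma was processed with Cell Ranger 6.0.1 and epithelium with 7.1.0, so software version and stroma against epithelium cannot be told apart.

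Cells were assigned to classes by marker lists that hold no chemokine. The classes are fibroblast (7696 and 8623 cells in stroma), epithelial, squamous, macrophage, endothelial, glia and neuron, and fibroblasts were divided into trophocyte-like (Cd34, Grem1, Rspo3), telocyte-like (Foxl1, Bmp5, Wnt5a), interferon-responding (Ifit1, Isg15), contractile (Acta2, Tagln) and other cells. Values below are CPM in that class and library, with replicate 1 before replicate 2. A level in a summed class mixes the number of cells that make a transcript with the amount in each, and these cannot be told apart from the sum.

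All chemokine genes together reached 2785 and 3773 CPM in the stromal libraries, 693 and 787 CPM in tissue epithelium, 451 and 513 CPM in assembloid epithelium and 154 and 153 CPM in organoid epithelium. By class, the sums were 7474 and 6559 CPM in macrophage-gated cells of the assembloid epithelium libraries, 6439 and 5940 CPM in telocyte-like, 6344 and 6851 CPM in interferon-responding and 2720 and 2946 CPM in trophocyte-like fibroblasts of the stromal libraries. In the fewer fibroblasts of the assembloid epithelium libraries the order of the first and the last was the other way, with 2143 and 1976 CPM in telocyte-like and 2942 and 2675 CPM in trophocyte-like cells. The 4 and 4 macrophage-gated cells of stroma had 12684 and 13307 CPM.

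**Figure D1:**
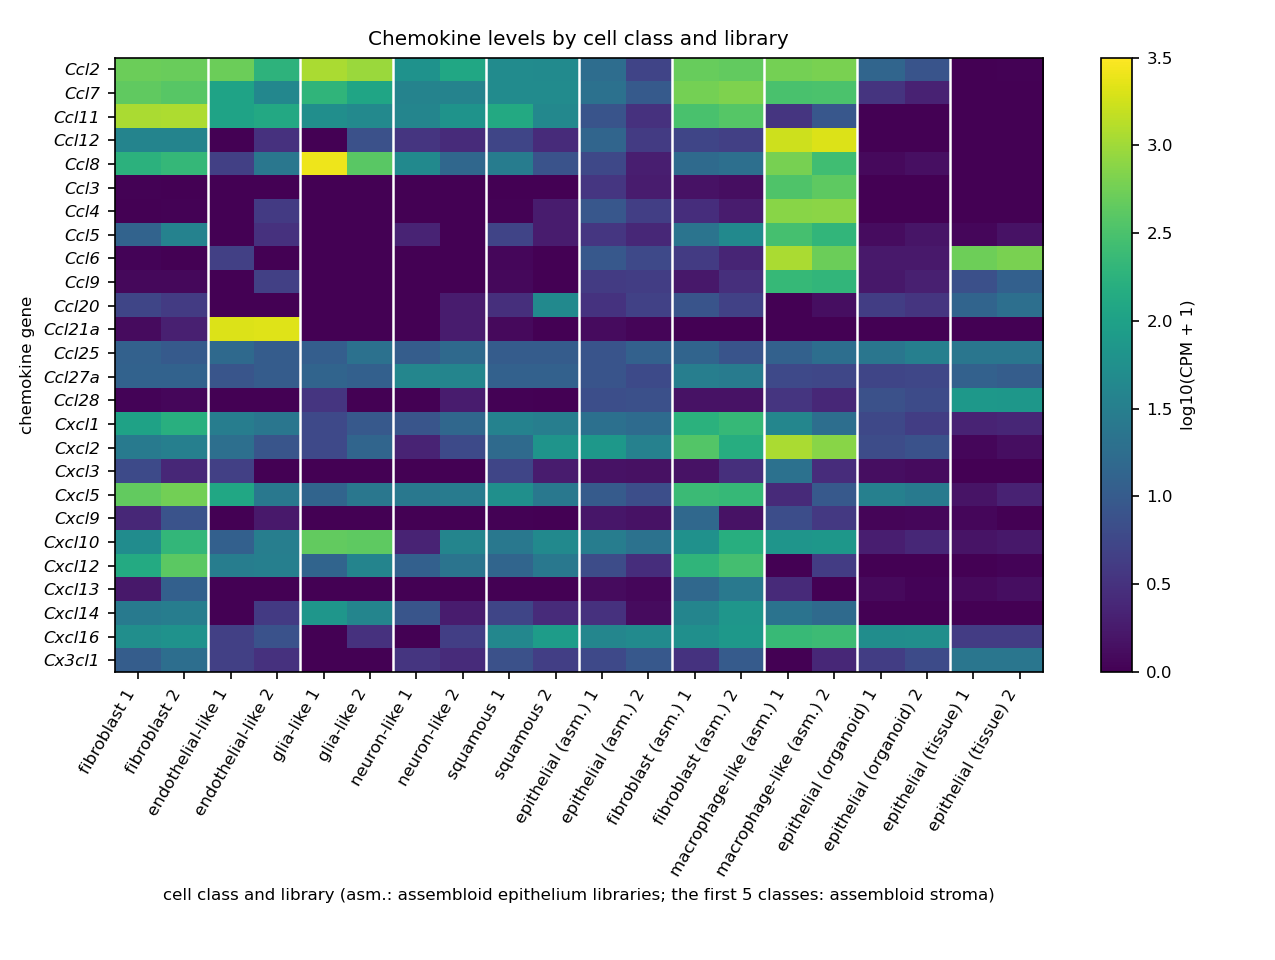
Chemokine level in each cell class and library, coloured by log10 of CPM plus 1, with 26 genes in rows and, in columns, 10 classes in the 2 libraries of their group. Ccl21a stands at 2078 and 2102 CPM in endothelial-like cells and Ccl6 at 536 and 621 CPM in tissue epithelium. In all fibroblasts of stroma, Cxcl10 stands at 48.7 and 209.5 CPM and Ccl11 at 1151 and 1186 CPM.

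The first comparison asks which ligands epithelial cells carry in tissue, in assembloids and in organoids. Tissue epithelium was marked by Ccl6, Ccl28, Ccl20, Cx3cl1 and Ccl25, all of which were lower in assembloids, and the first 4 were also lower in organoids. Assembloid epithelium carried Cxcl16, Cxcl2, Cxcl10 and Cxcl1 at levels well over those in tissue, and organoid epithelium carried Cxcl16, Cxcl5, Ccl25 and Ccl2.

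Ccl6 encodes a CC ligand of macrophages and other myeloid cells in the mouse. It stood at 536 and 621 CPM in tissue epithelium, 8.24 and 4.91 CPM in assembloids and 0.74 and 0.75 CPM in organoids, with no overlap between any 2 groups. It was lower than in tissue by log2 fold changes of -6.05 ± 0.40 (SE, n = 2 against 2 libraries) in assembloids and -9.36 ± 0.46 in organoids, with adjusted p of 3.12e-05 and 8.95e-06 in edgeR's quasi-likelihood test. Among the epithelial subtypes of tissue it was highest in cells with goblet cell markers (Muc2, Tff3, Fcgbp), at 1581 and 1621 CPM, against 87.7 and 110 CPM in cells with colonocyte markers. Goblet-marked cells held 5156 and 5199 Ccl6 UMIs and colonocyte-marked cells 682 and 707. Most Ccl6 UMIs of tissue epithelium lay in the 3856 and 3385 cells outside the marked subtypes. In those cells all chemokines together stood at 706 and 814 CPM. The 3 and 2 macrophage-gated cells of tissue had 1734 and 121 CPM and the 4 and 4 lymphocyte-gated cells 117 and 1244 CPM. The number of goblet-marked cells depends on the cell filter, with 235 and 238 cells here, 620 and 278 with at least 1000 genes per cell and 971 and 831 with up to 20% mitochondrial counts. The Ccl6 level of these cells lay between 1345 and 1757 CPM under the filters and gates tried, and that of colonocyte-marked cells between 46.9 and 110 CPM. Goblet-marked cells also led in the cultures, with Ccl6 at 23.3 and 34.1 CPM in assembloids, and at 30.4 and 25.8 CPM in the 83 and 87 such cells of organoids, where cells outside the marked subtypes had 0.35 and 0.32 CPM. At least 1 Ccl6 UMI was found in 52.2% and 59.0% of tissue epithelial cells, and in 29.2% and 39.9% of those with at least 2000 UMIs after thinning to 2000 UMIs. After thinning, the share was 76.1% and 75.8% of goblet-marked and 12.8% and 20.3% of colonocyte-marked cells. No class of tissue with enough cells is known to lack Ccl6, so the share that free RNA gives there was not measured. After the same thinning the share of organoid cells outside the subtypes was 0.064% and 0.022% (medians of 35476 and 8251 UMIs before thinning, against 3760 and 3729 in tissue).

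Ccl28, the mucosal ligand of Ccr10 that attracts antibody-secreting cells, stood at 72.0 and 70.4 CPM in tissue, 5.93 and 6.11 CPM in assembloids and 6.45 and 5.21 CPM in organoids. It was lower in both cultures, by -3.18 ± 0.25 in assembloids (adjusted p = 5.92e-05) and -3.35 ± 0.25 in organoids (adjusted p = 3.99e-05). The cultures did not differ beyond their spread (-0.18 ± 0.23, adjusted p = 0.549). In tissue it was at 81.7 and 78.3 CPM in colonocyte-marked and 26.1 and 33.1 CPM in goblet-marked cells. Ccl20, the ligand of Ccr6 made by epithelium over lymphoid follicles, had 12.6 and 17.7 CPM in tissue, 2.27 and 3.81 CPM in assembloids and 3.35 and 2.49 CPM in organoids. The tissue transcripts came from few cells, 164 of 4630 and 144 of 4275, and 1% of the cells held 79.2% and 84.5% of them. Ccl20 was lower by -1.96 ± 0.34 in assembloids (adjusted p = 0.00232) and by -2.11 ± 0.35 in organoids (adjusted p = 0.00159).

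Cx3cl1, the membrane-tethered ligand of Cx3cr1, had 22.6 and 22.4 CPM in tissue, 4.91 and 8.14 CPM in assembloids and 3.33 and 5.32 CPM in organoids. It was lower in assembloids by -1.43 ± 0.24 (adjusted p = 0.002) and in organoids by -2.18 ± 0.25 (adjusted p = 0.000272). Within tissue it was at 43.4 and 34.4 CPM in colonocyte-marked cells. Ccl25, the gut-homing ligand of Ccr9, took another course, with 22.98 and 22.4 CPM in tissue, 7.11 and 11.4 CPM in assembloids and 22.99 and 31.9 CPM in organoids. Assembloids were lower than tissue (-0.93 ± 0.21, adjusted p = 0.00714) and organoids were higher than assembloids (1.41 ± 0.21, adjusted p = 0.00107). Organoids and tissue did not differ at this threshold (0.48 ± 0.21, adjusted p = 0.0905). Ccl9, a relative of Ccl6, had 6.04 and 10.9 CPM in tissue, 3.07 and 3.31 CPM in assembloids and 0.70 and 1.04 CPM in organoids. It was lower by -1.03 ± 0.33 in assembloids (adjusted p = 0.0316) and by -3.08 ± 0.36 in organoids (adjusted p = 0.0003). Without the gate on epithelial cells, the assembloid difference of Ccl9 was -0.02 (adjusted p = 0.957). Ccl27a, for which the separation of reads between copies was not tested, had 11.1 and 9.85 CPM in tissue and 4.36 and 4.61 CPM in organoids (-0.99 ± 0.28, adjusted p = 0.0182).

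**Figure D2:**
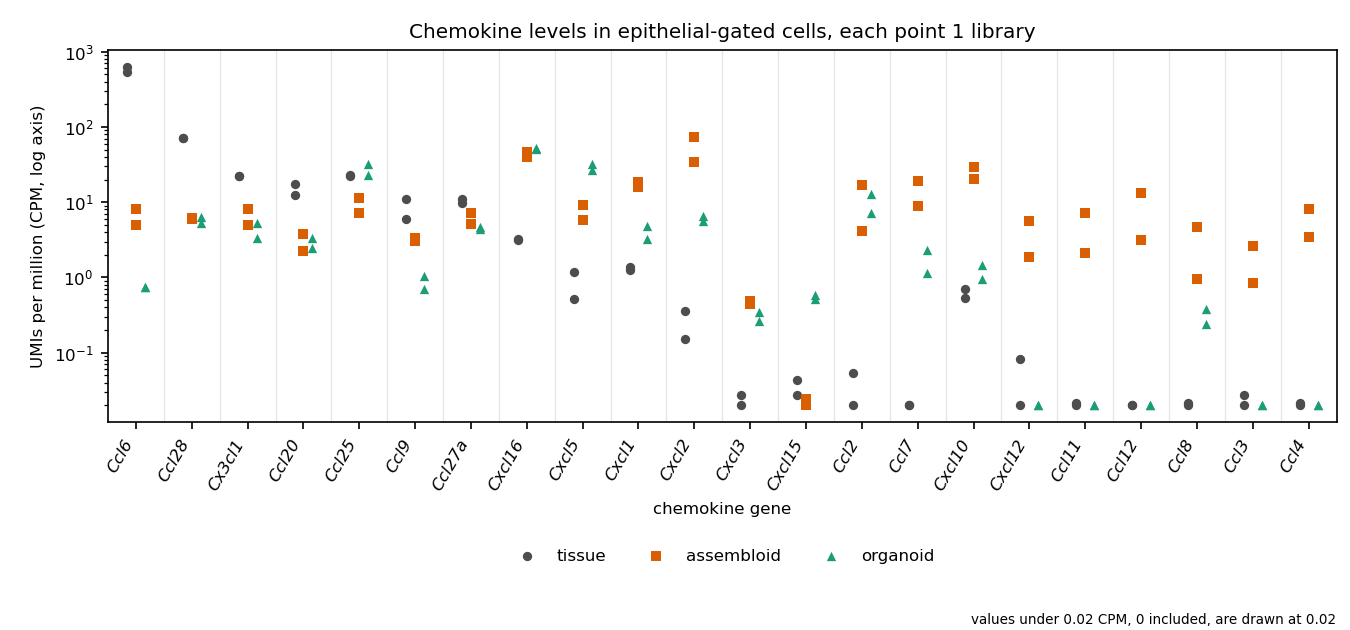
Chemokine levels of epithelial-gated cells in CPM on a log axis for 22 genes, with 2 points per group for the 2 libraries of tissue, assembloid and organoid epithelium, and with values under 0.02 CPM drawn at 0.02. Ccl6 falls from 536 and 621 CPM in tissue to 0.74 and 0.75 CPM in organoids, and Cxcl16 lies at 3.20 and 3.18 CPM in tissue against 39.4 to 53.3 CPM in the 4 cultured libraries.

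Of the ligands higher in culture, Cxcl16, a membrane-tethered ligand of Cxcr6 that is also a scavenger receptor, was high in assembloids and organoids alike. It stood at 3.20 and 3.18 CPM in tissue, 39.4 and 46.4 CPM in assembloids and 51.7 and 53.3 CPM in organoids. It was higher than in tissue by 4.13 ± 0.21 in assembloids (adjusted p = 1.45e-05) and 4.27 ± 0.21 in organoids (adjusted p = 9.11e-06). The cultures differed by 0.15 ± 0.18 (adjusted p = 0.524). Of the neutrophil attractants of the Cxcr2 group, Cxcl2, Cxcl1 and Cxcl5 differed between the cultures and Cxcl3 was not called (-0.74 ± 0.55, adjusted p = 0.289). Cxcl2 had 0.15 and 0.35 CPM in tissue, 73.2 and 33.8 CPM in assembloids and 5.59 and 6.65 CPM in organoids. Assembloids were above tissue by 8.20 ± 0.60 (adjusted p = 4.36e-05) and organoids were below assembloids by -3.33 ± 0.43 (adjusted p = 0.000577). Cxcl1 had 1.26 and 1.38 CPM in tissue, 18.5 and 15.9 CPM in assembloids and 4.78 and 3.26 CPM in organoids (4.10 ± 0.36 for assembloids over tissue, adjusted p = 9.83e-05). Cxcl5 ran the other way between the cultures, with 0.51 and 1.19 CPM in tissue, 9.17 and 5.84 CPM in assembloids and 32.3 and 26.7 CPM in organoids. Organoids were above assembloids in Cxcl5 by 1.82 ± 0.39 (adjusted p = 0.00545), a call that was lost when all kept cells were summed without the gate (0.76, adjusted p = 0.0634). Against tissue, organoids were higher in Cxcl2 (4.87 ± 0.57), Cxcl1 (1.88 ± 0.34) and Cxcl5 (5.39 ± 0.49), with adjusted p of 0.000299, 0.00264 and 9.26e-05. Assembloids were higher than tissue in Cxcl5 (3.57 ± 0.46, adjusted p = 0.000571).

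Cxcl10, an interferon-induced ligand of Cxcr3, stood at 0.53 and 0.71 CPM in tissue, 29.7 and 20.2 CPM in assembloids and 0.95 and 1.48 CPM in organoids. Assembloids exceeded tissue by 5.74 ± 0.37 (adjusted p = 2.94e-05), and organoids lay under assembloids by -4.57 ± 0.33 (adjusted p = 6.13e-05). Its transcripts in assembloids came from 9.34% and 9.86% of the cells (4.93% and 3.41% after thinning), and 1% of the cells held 45.0% and 54.3% of them. Cxcl9, from the same group of ligands, stayed low, at 0.15 and 0.03 CPM in tissue, 0.61 and 0.48 CPM in assembloids and 0.10 and 0.14 CPM in organoids. The assembloid level of Cxcl9 was higher than in tissue (2.94 ± 0.70, adjusted p = 0.009) and than in organoids, which were lower by -2.35 ± 0.61 (adjusted p = 0.0121).

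Ccl2 and Ccl7, monocyte attractants that bind Ccr2, were found in organoids as well, where the 10 fibroblast markers summed to only 0.81 and 1.23 CPM. Ccl2 had 12.8 and 7.12 CPM in organoids and 17.0 and 4.15 CPM in assembloids, against 2 UMIs in both tissue libraries together. The ratio of organoids to tissue was 457 (95% counting interval 126 to 3780) and that of assembloids to tissue 499 (138 to 4130), both called in the fit with adjusted p of 0.000725 and 0.000697 in edgeR's test. Organoid Ccl2 came from 479 of 4856 and 275 of 7356 cells, and 1% of the cells held 48.6% and 61.5% of it. Ccl7 had 2.31 and 1.13 CPM in organoids and 18.97 and 8.78 CPM in assembloids and no UMI in tissue, which makes it at least 48.0-fold higher in organoids and at least 387-fold higher in assembloids, against a floor of 3 UMIs over both tissue libraries. Among the epithelial libraries, Cxcl15, an epithelial ligand of neutrophils, was found mainly in organoids, at 0.58 and 0.52 CPM, against 3 UMIs in tissue (15.6-fold, 95% counting interval 5.23 to 76.3) and 0.02 and 0 CPM in assembloids (5.02 ± 0.85 for organoids over assembloids, adjusted p = 0.00181).

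A further set of ligands passed the test over tissue in assembloids at levels under 15 CPM. Most of them stood higher in the fibroblasts or the macrophages gated in the same libraries, Cxcl17 and Ccl21a not in both libraries. Ccl12 had 13.1 and 3.10 CPM, Ccl4 8.04 and 3.43, Ccl11 7.23 and 2.11, Cxcl12 5.58 and 1.88, Ccl8 4.70 and 0.97, Ccl3 2.59 and 0.84, Ccl5 2.62 and 1.42, Cxcl17 2.17 and 0.42, Cxcl14 2.11 and 0.26, Cxcl3 0.49 and 0.45 and Ccl21a 0.26 and 0.12 CPM in assembloid epithelial cells. Each was higher in the first library than in the second, Cxcl3 by the least. Ccl12, Cxcl14 and Ccl21a had no UMI in tissue and were at least 225-fold, 33.1-fold and 5.29-fold higher in assembloids. Those with 1 to 3 UMIs in tissue had ratios of 521 (Ccl4, 95% counting interval 93.4 to 20600), 436 (Ccl11, 78.2 to 17300), 271 (Ccl8, 48.4 to 10700), 159 (Ccl3, 28.4 to 6300), 115 (Cxcl12, 39.3 to 559) and 39.7 (Cxcl3, 7.0 to 1580). Ccl5 and Cxcl17 were higher by 3.17 ± 0.65 (adjusted p = 0.00486) and 3.10 ± 0.84 (adjusted p = 0.0159).

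Fibroblast transcripts moved with this comparison. The 10 fibroblast markers, which helped to define the epithelial gate, summed to 266 and 56.0 CPM in the epithelial-gated cells of assembloids with none of the 10 at 0. They summed to 0.30 and 0.41 CPM in tissue with 8 and 7 of them at 0 (Col1a2, Col3a1 and Lum among them) and to 0.81 and 1.23 CPM in organoids with 6 at 0 in each. The 10 macrophage markers summed to 128 and 70.1 CPM in assembloids, 144 and 127 CPM in tissue and 11.5 and 15.1 CPM in organoids, with C1qc and Adgre1 at 0 in both tissue libraries. The level of each ligand in epithelial-gated cells was therefore set against that in the fibroblast-gated and macrophage-gated cells of the same library, beside stromal genes that were chosen for this after the data had been seen. Sparc, Bgn, Serpinf1 and Col5a2 in epithelial-gated cells stood at 2.22% to 2.58% of their fibroblast level in the first and 0.41% to 0.56% in the second library. Ccl11 stood at 2.36% and 0.56%, Cxcl12 at 2.84% and 0.66%, Ccl2 at 3.51% and 0.90%, Ccl7 at 3.21% and 1.31% and Cxcl5 at 3.74% and 2.68%. The macrophage genes Laptm5, Pf4, Ms4a7 and Coro1a stood at 0.50% to 0.80% and 0.17% to 0.48% of their macrophage level, beside 0.78% and 0.15% for Ccl12, 0.75% and 0.20% for Ccl3, 1.05% and 0.44% for Ccl4, 0.77% and 0.36% for Ccl8, 0.73% and 0.95% for Ccl6 and 1.42% and 1.66% for Ccl9. Ligands with far larger shares of the fibroblast level included Cxcl16 at 72.4% and 64.8%, Cxcl10 at 51.5% and 13.1%, Cxcl2 at 19.8% and 22.5%, Cxcl1 at 10.8% and 7.32%, Ccl27a at 23.2% and 18.9%, Ccl20 at 31.7% and 99.99% and Ccl25 at 57.1% and 159.8%. Cxcl16 and Cxcl2 were at 17.3% and 18.3% and at 6.49% and 4.51% of the macrophage level. The part of transcripts from other cells in each result was not tested.

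**Figure D3:**
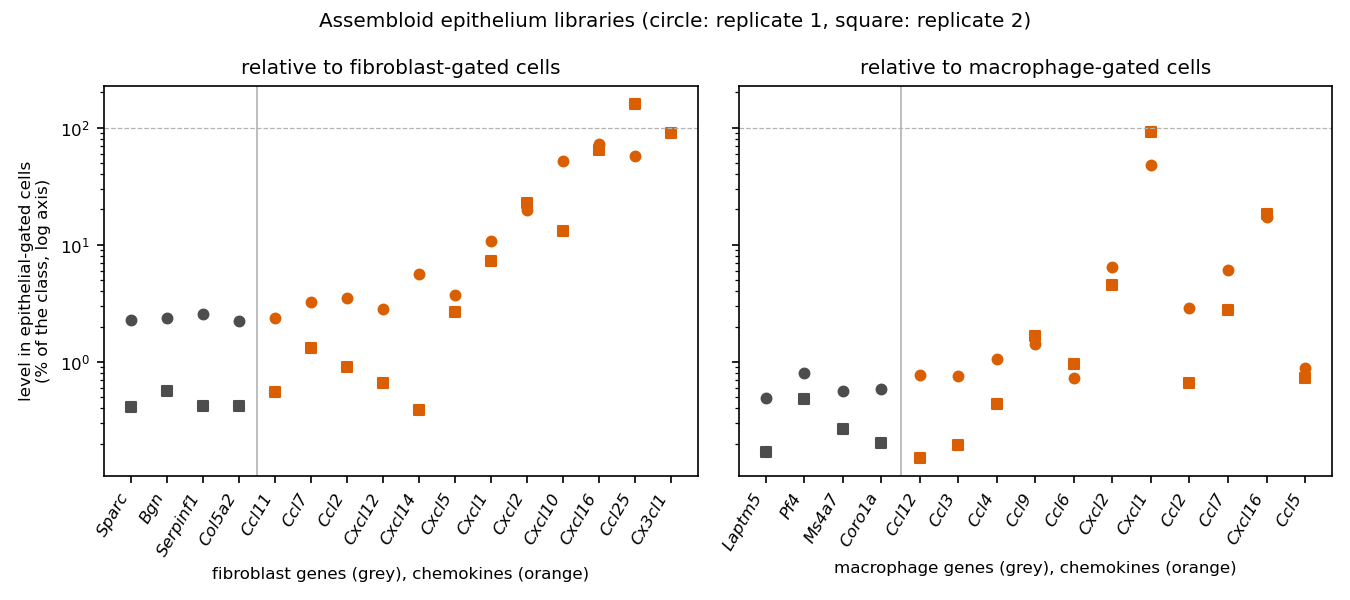
Level in epithelial-gated cells as a percentage of that in the fibroblast-gated or macrophage-gated cells of the same assembloid epithelium library, on a log axis (circle, replicate 1; square, replicate 2). Ccl11, at 2.36% and 0.56%, lies among the stromal reference genes, and Cxcl16, at 72.4% and 64.8% of the fibroblast level, far above them.

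Counted over the set, 28 of the 44 rows passed the filter on low counts in the epithelial fit. Between assembloids and tissue, 25 were called, 19 higher and 6 lower, where 26.6% of all 19175 genes were higher and 22.9% lower, 49.6% in all, and the median log2 fold change of the 28 was 4.11 against 0.03 over all genes. Between organoids and tissue, 16 were called, 10 higher and 6 lower, where 24% of all genes were higher and 22.6% lower, 46.6% in all (medians 0.01 and 0.06). Between organoids and assembloids, 21 were called, 3 higher and 18 lower, where 24.3% of all genes were higher and 28.6% lower, 52.9% in all (medians -2.40 and -0.02). Rows pass the filter mainly through the group in which they are high, so the counts hold for those rows and not for all 44, and the 3 contrasts share their libraries. The organoid calls not named above were Ccl8 (0.24 and 0.38 CPM) and Cxcl3 (0.35 and 0.26 CPM) with 1 UMI each in tissue, 24-fold (95% counting interval 4.18 to 958) and 26.9-fold (4.71 to 1080) higher, and Cxcl10 (1.17 ± 0.35, adjusted p = 0.0236). Lower in organoids than in assembloids were also Ccl12, Ccl11, Ccl3, Cxcl14 and Ccl21a, at 0 in organoids and at least 753, 435, 160, 110 and 17.7-fold higher in assembloids. The same held for Cxcl12 and Ccl4, with 1 and 2 organoid UMIs (1150-fold, 207 to 45600, and 870-fold, 241 to 7190). By log2 fold change, the rest were Ccl8 (-3.45), Ccl6 (-3.32), Ccl7 (-3.13), Cxcl17 (-3.08), Ccl5 (-2.45), Cxcl1 (-2.22), Ccl9 (-2.05) and Cx3cl1 (-0.76).

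Some calls on low or close values were lost without 1 library. Against tissue, assembloids lost Ccl9 without either assembloid library (adjusted p 0.0585 and 0.0593) or the second tissue library (0.325). They lost Cxcl17 without the first assembloid library (a difference of 1.32 rather than 3.10, 0.0973) or either tissue library (0.095 and 0.0579), Ccl21a without either tissue library (0.0747 and 0.0596), Ccl25 without the first (0.0539) and Cxcl9 without the second tissue library (0.0753). Organoids against tissue lost Ccl8 without any 1 of the 2 organoid and 2 tissue libraries (0.0629 to 0.0883), Cxcl15 without the first organoid or either tissue library (0.0519 to 0.0575), and Ccl27a and Cxcl10 without the second organoid or either tissue library (0.0697 to 0.121 and 0.0593 to 0.165). Organoids against assembloids lost Cxcl9 (0.104 and 0.0838) and Ccl8 (0.0705 and 0.0557) without either organoid library, Ccl5 without the first (0.0831), Cxcl17 without either organoid (0.0827 and 0.0905) or the first assembloid library (-1.29 rather than -3.08, 0.0703), and Cx3cl1 without the second assembloid, the first organoid or either tissue library (0.0731 to 0.169). Without the first assembloid library, Ccl8 (-1.75 rather than -3.45), Cxcl2 (-2.54 rather than -3.33), Ccl7 (-2.34 rather than -3.13), Ccl5 (-1.84 rather than -2.45) and Cxcl15 (8.72 rather than 5.02) kept the call, as did Ccl7 without the first organoid library (-3.96) and Cxcl15 without the second assembloid library (4.24). In assembloids against tissue, Ccl5 was 2.51 without the first and 4.15 without the second tissue library, Cxcl9 was 4.63 without the first and Cxcl5 4.27 without the second, all called, and Ccl5 was 2.56 without the first assembloid library. Cxcl2 was 7.41 without the first assembloid and 8.88 without the second tissue library, and in organoids against tissue Cxcl2 was 5.58 and Cxcl5 6.11 without the latter, all called. Fitted differences against 0 to 3 tissue UMIs (Ccl2, Ccl3, Ccl4, Ccl7, Ccl8, Ccl11, Ccl12, Cxcl3, Cxcl12 and Cxcl14) moved by more than 1.5-fold without 1 library and kept the call, that of Cxcl12 between 5.90 and 11.92. The same held for Ccl2, Ccl7 and Cxcl3 in organoids against tissue, and for Ccl3, Ccl4, Ccl11, Ccl12, Cxcl12 and Cxcl14, with 0 to 2 organoid UMIs, in organoids against assembloids. With up to 20% mitochondrial counts allowed, a limit that bears most on tissue, Ccl9 in assembloids against tissue (-0.41, adjusted p = 0.313) and Ccl27a (-0.67, 0.12) and Cxcl10 (1.03, 0.0691) in organoids against tissue were not called. The Ccl9 call was also lost without the 6% of cells with most UMIs (-0.68, 0.0764). With DESeq2, Cxcl14 was not called in assembloids against tissue (adjusted p = 0.128) or organoids (0.0675). Cxcl13, with 0.10 to 0.35 CPM in every library, was called in none of the 3 comparisons.

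The stroma of assembloids was mostly fibroblasts, and their ligands were compared next with those of assembloid epithelium. Whether the stromal and epithelial libraries came from the same cultures is not stated. Fibroblasts were higher in eotaxin (Ccl11), the monocyte attractants Ccl2 and Ccl7, their relative Ccl8, the neutrophil attractants Cxcl5 and Cxcl1, and Cxcl12, the ligand that holds stem cells and lymphocytes through Cxcr4. Epithelial-gated cells were higher in Ccl28, Ccl6, Ccl9, Ccl4, Ccl3 and Cxcl17. Of these, Ccl3 and Ccl4 stood at 0.20% to 1.05% and Ccl6 and Ccl9 at 0.73% to 1.66% of their level in the macrophage-gated cells of the same libraries, beside 0.17% to 0.80% for the macrophage genes above, and the part of macrophage transcripts in these differences was not tested.

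Ccl11 stood at 1151 and 1186 CPM in stromal fibroblasts against 7.23 and 2.11 CPM in assembloid epithelium (7.78 ± 0.82, adjusted p = 0.00124). Ccl2 had 516 and 506 against 17.0 and 4.15 CPM (5.40 ± 0.82, adjusted p = 0.00346), and Ccl7 had 436 and 391 against 18.97 and 8.78 CPM (4.72 ± 0.49, adjusted p = 0.00124). These CC ligands differed little between the stromal libraries. Cxcl5 had 454 and 561 against 9.17 and 5.84 CPM (5.92 ± 0.38, adjusted p = 0.000396), Ccl8 had 176 and 213 against 4.70 and 0.97 CPM (5.90 ± 0.90, adjusted p = 0.00353) and Cxcl1 had 101.5 and 160 against 18.5 and 15.9 CPM (2.77 ± 0.30, adjusted p = 0.00132). Others were higher in the second stromal library by more than 2-fold, namely Cxcl12 (139 and 410 CPM, 6.02 ± 0.91 over epithelium, adjusted p = 0.00346), Cxcl10 (48.7 and 209.5 CPM, 2.22 ± 0.74, adjusted p = 0.0427), Ccl5 (12.2 and 35.2 CPM, 3.38 ± 0.66, adjusted p = 0.00761), Cxcl9 (1.46 and 6.75 CPM, 2.76 ± 0.81, adjusted p = 0.0293) and Cxcl13 (0.66 and 10.9 CPM, 4.57 ± 1.41, adjusted p = 0.0348). Cxcl14, a ligand of epithelia and fibroblasts, had 26.9 and 29.3 CPM (4.34 ± 0.97, adjusted p = 0.0122).

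Low ligands called higher in fibroblasts were Cxcl3 (5.17 and 1.42 CPM, 2.65 ± 0.70), Cxcl15 (0.365 and 0.105 CPM, 3.82 ± 1.15), Ccl17 (0.084 and 0.105 CPM, 1.72 ± 0.56), Ccl19 (0.38 and 0.48 CPM, with 1 epithelial UMI, 118-fold with a 95% counting interval of 20.8 to 4700) and Ccl27a (11.5 and 11.4 CPM, 0.75 ± 0.26, adjusted p = 0.0489). Cxcl3 and Cxcl15 were higher in the first stromal library by more than 3-fold. In that library Cxcl15 stood at 9.94 CPM in squamous-gated and 16.2 CPM in epithelial-gated cells. The part of transcripts from those cells in the fibroblast level was not tested. Lower in fibroblasts were Ccl4 (0.01 and 0.06 CPM, -7.53 ± 0.97), Ccl6 (0.08 and 0.02 CPM, -7.20 ± 0.79), Cxcl17 (0.02 and 0.01 CPM, -6.53 ± 1.24), Ccl3 (0.04 and 0.02 CPM, -5.97 ± 0.89), Ccl28 (0.10 and 0.15 CPM, -5.72 ± 0.37) and Ccl9 (0.21 and 0.17 CPM, -4.21 ± 0.35), with adjusted p from 0.0004 to 0.00708. Not called were Cxcl16 (52.4 and 60.6 CPM in fibroblasts), Ccl12 (36.4 and 36.7 CPM, adjusted p = 0.0533), Cxcl2 (26.8 and 31.8 CPM, adjusted p = 0.0812), Cx3cl1 (9.67 and 17.2 CPM), Ccl25 (11.3 and 8.90 CPM), Ccl20, Ccl21a and Ccl24. In all, 31 of the 44 rows were tested and 23 called, 17 higher and 6 lower, where 33.6% of all genes were higher and 38.8% lower, 72.5% in all, with medians of 2.22 for the tested rows and -0.12 over all genes. Changing the scaling moved the latter to -0.18, and the named differences are read relative to these. Cxcl9, Cxcl10, Cxcl13 and Ccl17 lost the call with the replicate number as a block (adjusted p 0.0516, 0.0838, 0.0875 and 0.108), as the first 3 did without either epithelial library or the second stromal library (up to 0.151, 0.206 and 0.18) and Ccl17 without any 1 of the 4 (up to 0.279). Cxcl3 and Cxcl15 lost it without either epithelial or the first stromal library (up to 0.11 and 0.162), Ccl27a without the second epithelial or either stromal library (up to 0.145) and Ccl5 without the second epithelial library (0.0567). Without the second stromal library the differences of Cxcl9, Cxcl10 and Cxcl13 were 1.27, 0.82 and 1.45, and that of Cxcl3 without the first was 1.48. The Cxcl15 difference was 7.84 without the first epithelial and 2.74 without the first stromal library. Without the first epithelial library, Ccl11 (9.03), Ccl8 (7.57), Cxcl12 (7.12), Ccl2 (6.86), Cxcl14 (6.67), Ccl19 (8.72), Ccl7 (5.47) and Ccl5 (3.98) differed by more, and Ccl4 (-6.69), Ccl3 (-4.83) and Cxcl17 (-4.78) by less. Without the second, Ccl11 (7.11), Ccl19 (5.76), Cxcl12 (5.40), Ccl8 (5.14), Ccl2 (4.685) and Cxcl14 (3.51) differed by less, and Cxcl17 (-7.31) and Ccl3 (-6.61) by more. Without the second stromal library, Cxcl12 was 5.05, Ccl5 2.44, Ccl6 -6.43 and Ccl4 -9.55, and without the first, Cxcl12 was 6.63, Ccl5 3.98, Ccl6 -8.81, Ccl4 -6.69 and Cxcl17 -7.42. All of these kept the call. With all kept cells summed without the gate, 7 ligands were not called, Ccl19 (2.02, adjusted p = 0.137), Ccl5 (1.44, 0.0683), Cxcl13 (0.185), Ccl17 (0.0843), Ccl27a (0.0823), Cxcl9 (0.0745) and Cxcl10 (0.0546). Ccl17 was not called with DESeq2 (0.301) or with no filter on low counts (0.0973), nor Ccl27a with no filter (0.0542), another scaling (0.0569) or without the 6% of cells with most UMIs (0.0596).

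The fibroblasts found in the assembloid epithelium libraries (644 and 514 cells) had Ccl7 at 590 and 672, Ccl2 at 484 and 460, Ccl11 at 307 and 379, Cxcl5 at 245 and 218, Cxcl12 at 197 and 286, Cxcl1 at 172 and 218 and Ccl8 at 15.4 and 18.1 CPM. Cxcl2 was at 369 and 150 CPM in them against 26.8 and 31.8 CPM in the stromal libraries. Telocyte-like cells made up 17 and 21 of these fibroblasts and 417 and 497 of those in stroma. The 2 sets of libraries differ in software and in the cells they were labelled for, and the difference was not tested. How the stromal and the epithelial cells were separated is not given in the sources used here.

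Telocytes lie under the upper crypt epithelium and secrete BMP ligands, and trophocytes lie at the crypt base and secrete Grem1 and R-spondins. Telocyte-like and trophocyte-like fibroblasts of the stromal libraries carried different chemokines. The types were not compared in the assembloid epithelium libraries. There all chemokines together stood at 2143 and 1976 CPM in telocyte-like cells, against 6439 and 5940 CPM in stroma. Within stroma, telocyte-like cells were higher in Ccl11, Ccl8, Ccl12, Cxcl14 and Ccl7. Trophocyte-like cells were higher in Cxcl5, Cxcl3, Cxcl1, Cxcl12, Cx3cl1 and Cxcl2, while Ccl2 was not called. The types differed in the genes that helped to define them, with Foxl1 at 15.1 and 24.3 CPM and Bmp5 at 86.7 and 79.6 CPM in telocyte-like against 0.27 and 0.27 CPM and 1.80 and 1.24 CPM in trophocyte-like cells, and Grem1 at 1100.2 and 911 CPM and Rspo3 at 162 and 220.3 CPM in trophocyte-like against 287 and 174 CPM and 7.88 and 9.96 CPM in telocyte-like cells.

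Ccl12, a mouse relative of Ccl2, stood at 316 and 271 CPM in telocyte-like against 8.85 and 6.62 CPM in trophocyte-like cells, and trophocyte-like cells were lower by -5.21 ± 0.19 (SE, n = 2 libraries, adjusted p = 2.76e-08). Ccl8, another CC ligand of the cluster, had 761 and 768 against 92.2 and 73.8 CPM (-3.17 ± 0.27, adjusted p = 7.23e-06). Ccl11, which attracts eosinophils through Ccr3, had 3675 and 3307 against 543 and 396 CPM (-2.86 ± 0.15, adjusted p = 1.88e-07). In each of these the lower telocyte-like library lay above the higher trophocyte-like library. Cxcl14 had 87.1 and 83.8 against 15.1 and 20.4 CPM (-2.23 ± 0.14, adjusted p = 6.47e-07), and Ccl7 had 707 and 586 against 436 and 369 CPM (-0.64 ± 0.07, adjusted p = 5.43e-05). Ccl2 lay between 488 and 614 CPM in all 4, with a difference of 0.06 ± 0.12 (adjusted p = 0.707).

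Cxcl5 stood at 587 and 734 CPM in trophocyte-like against 75.1 and 78.7 CPM in telocyte-like cells (3.13 ± 0.16, adjusted p = 1.45e-07). Cxcl1 had 114 and 182 against 41.3 and 64.8 CPM (1.52 ± 0.09, adjusted p = 6.4e-07), and Cxcl2 had 27.9 and 36.6 against 18.5 and 12.0 CPM (1.14 ± 0.33, adjusted p = 0.0168). These and Cxcl3, at 7.76 and 1.94 against 0.59 and 0.19 CPM (3.61 ± 0.50, adjusted p = 0.000218), are ligands of the neutrophil receptor Cxcr2. Cxcl12 had 163 and 478 against 63.4 and 139.7 CPM (1.61 ± 0.13, adjusted p = 3.87e-06), a difference seen within each library although the second library was higher in both types. Cx3cl1 had 9.80 and 15.2 against 3.41 and 6.14 CPM (1.47 ± 0.20, adjusted p = 0.000232), Ccl27a 12.8 and 12.6 against 9.41 and 6.51 CPM (0.74 ± 0.16, adjusted p = 0.0038), and Ccl20 5.002 and 3.06 against 2.12 and 1.40 CPM (1.23 ± 0.42, adjusted p = 0.0347). Ccl24, an eotaxin, was at 1.01 and 0.52 CPM with no UMI in telocyte-like cells, at least 4.89-fold higher in trophocyte-like cells.

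After thinning to 2000 UMIs, Ccl12 was detected in 20.4% and 17.9% of telocyte-like and 0.83% and 0.60% of trophocyte-like cells, Ccl8 in 48.4% and 52.7% against 8.35% and 7.77%, and Cxcl5 in 11.8% and 10.1% against 44.7% and 54.4%. Before thinning the Ccl12 shares were 42.7% and 45.3% against 4.68% and 3.88%, the Ccl8 shares 82.0% and 89.3% against 33.4% and 28.7% and the Cxcl5 shares 47.5% and 55.9% against 82.7% and 88.1%. In neuron-like cells of the same libraries, taken as cells that should lack fibroblast ligands, thinned shares were 1.96% and 0% for Ccl12, 5.88% and 1.14% for Ccl8 and 1.96% and 5.68% for Cxcl5. The trophocyte-like shares of Ccl12 are too low to be set apart from that background. The trophocyte-like shares of Ccl8 and the telocyte-like shares of Cxcl5 were higher than it in both libraries. The background rests on at most 52 and 89 cells, and its counting error was not computed. The closest pairs, 8.35% against 5.88% for Ccl8 and 10.1% against 5.68% for Cxcl5, are therefore not clearly set apart. Median depths were 18238 and 19931 UMIs in telocyte-like, 15191 and 12986 in trophocyte-like and 12536.5 and 11806 in neuron-like cells.

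**Figure D4:**
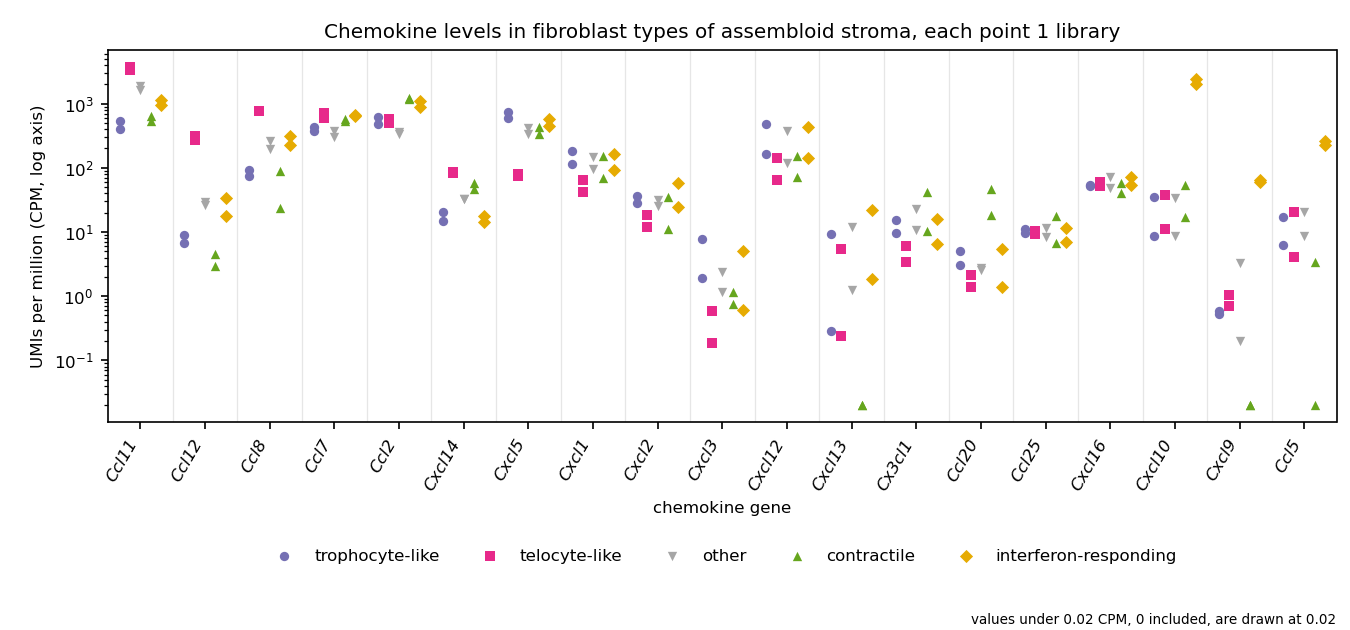
Levels of 19 chemokine genes in CPM on a log axis in 5 types of fibroblasts of the assembloid stroma, with 2 points for the 2 libraries. Ccl12 lies at 316 and 271 CPM in telocyte-like cells against 8.85 and 6.62 CPM in trophocyte-like cells, Cxcl5 at 75.1 and 78.7 CPM against 587 and 734 CPM, and Cxcl10 at 2413 and 2021 CPM in interferon-responding cells.

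Of the 44 rows, 22 passed the filter in the fit of fibroblast types and 14 were called, 9 higher in trophocyte-like and 5 higher in telocyte-like cells, where 21.1% of all 13459 genes were higher and 22.6% lower, 43.8% in all (medians 0.33 and 0.01). Cxcl16 (54.1 and 52.3 against 60.8 and 51.5 CPM), Ccl25, Cxcl10, Ccl5, Cxcl9, Cxcl13 and Ccl21a were not called. Without the library as a block, Cxcl12 (adjusted p = 0.158), Cx3cl1 (0.134), Cxcl2 (0.093) and Ccl20 (0.137) lost the call, and with DESeq2 Cxcl2 (0.209) and Ccl20 (0.0511) lost it. Without the first stromal library the difference of Cxcl3 was 2.95 rather than 3.61, and with 1 library there is no test. Such untested differences within libraries, here and below, are plain differences of log2 CPM with a prior count. They are not fitted values, so part of a change from the fitted value can come from the method.

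Of the 14 genes called, 8 lie in 2 clusters, and Cxcl14, Cxcl12, Cx3cl1, Ccl27a, Ccl20 and Ccl24 lie elsewhere. On chromosome 5 (GRCm38), Cxcl5 (90759360 to 90761624), Cxcl3 (90786103 to 90789600), Cxcl1 (90891241 to 90893115) and Cxcl2 (90903871 to 90905938) lie on the forward strand with Cxcl15 (90794534 to 90803067) between them, and all 4 tested genes were higher in trophocyte-like cells. Cxcl15 did not pass the filter. On chromosome 11, Ccl2 (82035571 to 82037453), Ccl7 (82045712 to 82047525), Ccl11 (82057823 to 82062955), Ccl12 (82101845 to 82103400) and Ccl8 (82115185 to 82116799) lie on the forward strand in this order. Along the cluster the difference went from 0.06 ± 0.12 at Ccl2 and -0.64 ± 0.07 at Ccl7 to -2.86 ± 0.15 at Ccl11, -5.21 ± 0.19 at Ccl12 and -3.17 ± 0.27 at Ccl8. None of these 10 genes overlaps another on its own strand in the annotation.

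**Figure D5:**
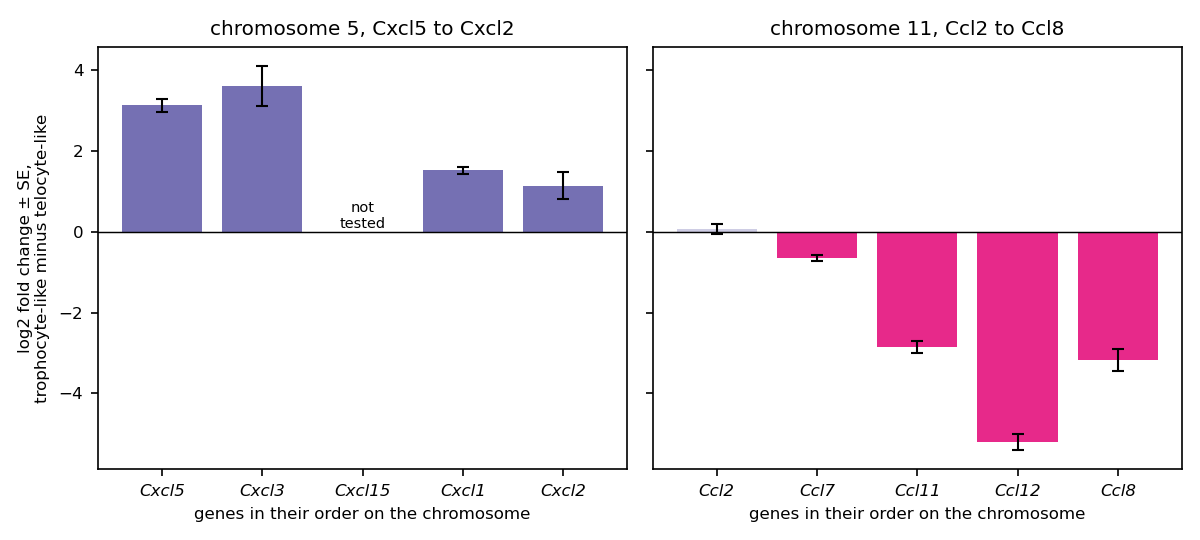
Log2 fold change of trophocyte-like over telocyte-like fibroblasts (bars, SE) for the chemokine genes of the chromosome 5 and chromosome 11 clusters in gene order. Cxcl5, Cxcl3, Cxcl1 and Cxcl2 lie between 1.14 and 3.61, Cxcl15 was not tested, and the chromosome 11 genes run from 0.06 at Ccl2 to -5.21 at Ccl12.

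Promoter sequence was available in RefSeq (GRCm38.p6) for 27 of the 38 symbols, Ccl2, Ccl5, Ccl7, Ccl11 and Cxcl5 not among them. The 250 bases before the start are printed for the genes of both clusters that were tested between the types and have an entry, and for Cxcl10, which marks the interferon-responding cells. They are chr5:90890995-90891244 (forward strand) for Cxcl1, chr5:90903649-90903898 (forward) for Cxcl2, chr5:90785851-90786100 (forward) for Cxcl3, chr11:82101595-82101844 (forward) for Ccl12, chr11:82114935-82115184 (forward) for Ccl8 and chr5:92348890-92349139 (reverse) for Cxcl10, all read 5′ to 3′ toward the gene. The RefSeq starts of Cxcl1, Cxcl2 and Cxcl3 differ from the gene positions above, and the last bases of the Cxcl1 and Cxcl2 windows lie inside those positions. Capitals mark matches to the kappaB motif, to the TATA box (TATAAA) or to the core of the interferon-stimulated response element, ISRE (GAAA, any 2 bases, GAAA), searched on both strands.
Cxcl1: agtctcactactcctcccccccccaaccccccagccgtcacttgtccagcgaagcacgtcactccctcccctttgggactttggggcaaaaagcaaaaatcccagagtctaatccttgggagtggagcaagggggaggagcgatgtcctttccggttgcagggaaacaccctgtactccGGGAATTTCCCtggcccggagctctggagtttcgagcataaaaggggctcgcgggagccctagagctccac
Cxcl2: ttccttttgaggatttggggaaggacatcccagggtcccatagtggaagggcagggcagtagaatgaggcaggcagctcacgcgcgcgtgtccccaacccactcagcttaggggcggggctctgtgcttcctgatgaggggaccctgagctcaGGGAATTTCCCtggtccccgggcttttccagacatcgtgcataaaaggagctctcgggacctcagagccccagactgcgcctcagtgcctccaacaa
Cxcl3: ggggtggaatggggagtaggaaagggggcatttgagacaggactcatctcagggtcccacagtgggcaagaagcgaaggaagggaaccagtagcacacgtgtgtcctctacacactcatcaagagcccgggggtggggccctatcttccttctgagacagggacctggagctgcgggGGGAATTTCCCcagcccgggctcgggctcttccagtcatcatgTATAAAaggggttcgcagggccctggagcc
Ccl12: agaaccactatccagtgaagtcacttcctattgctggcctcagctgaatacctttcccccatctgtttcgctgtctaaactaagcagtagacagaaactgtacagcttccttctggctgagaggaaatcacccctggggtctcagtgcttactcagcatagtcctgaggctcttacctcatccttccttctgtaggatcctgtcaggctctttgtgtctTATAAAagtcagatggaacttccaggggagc
Ccl8: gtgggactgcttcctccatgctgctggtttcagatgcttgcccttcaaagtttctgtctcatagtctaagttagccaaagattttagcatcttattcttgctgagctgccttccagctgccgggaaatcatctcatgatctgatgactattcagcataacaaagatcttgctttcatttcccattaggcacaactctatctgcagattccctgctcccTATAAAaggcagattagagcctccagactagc
Cxcl10: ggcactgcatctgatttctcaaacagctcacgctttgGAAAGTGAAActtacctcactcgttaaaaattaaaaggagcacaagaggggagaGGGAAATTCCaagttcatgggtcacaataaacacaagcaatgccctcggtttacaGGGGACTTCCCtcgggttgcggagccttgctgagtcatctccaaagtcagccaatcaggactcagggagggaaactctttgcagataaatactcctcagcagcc

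The kappaB motif was found in Cxcl1, Cxcl2, Cxcl3 and Cxcl10 and in neither Ccl12 nor Ccl8, and in 7 of 33 member promoters against 7.25% of 32851 promoters in the table. The TATA box was found in Cxcl3, Ccl12 and Ccl8 and in 10 of the 33, against 12.4% of all. The ISRE core was found in Cxcl10 and in 3 of the 33, against 2.98% of all. These are matches of letters in a window, with no measurement of binding.

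Interferon-responding fibroblasts, gated on interferon-stimulated genes such as Ifit1 (823 and 806 CPM), numbered 126 and 772 in the 2 stromal libraries and carried the Cxcr3 ligands Cxcl10 and Cxcl9 with Ccl5, an attractant of T cells and monocytes. Cxcl10 stood at 2413 and 2021 CPM in them, against 8.80 and 35.3 CPM in trophocyte-like, 11.1 and 37.0 CPM in telocyte-like and 8.54 and 33.5 CPM in other fibroblasts. Its difference from the mean of these 3 types was 7.02 ± 0.33 (adjusted p = 1.75e-07), and, untested, 5.84 without the first and 7.99 without the second library. Cxcl9 had 63.8 and 60.3 CPM against at most 3.28 CPM in the 3 types (5.97 ± 0.44, adjusted p = 8.88e-06, and 6.97 without the second library), and Ccl5 had 264 and 224 CPM against 4.09 to 20.4 CPM (4.29 ± 0.39, adjusted p = 2.17e-05). Cxcl10 was found in 76.2% and 68.4% of the interferon-responding cells (64.3% and 50.1% after thinning), against 0% and 3.41% of neuron-like cells after thinning. Cxcl9 and Ccl5 came from few of them, 8.73% and 7.51% for Cxcl9 and 8.73% and 6.48% for Ccl5, and 1% of the cells held 56.7% and 88.7% of Ccl5. The gating genes and Cxcl10 and Cxcl9 are both known interferon targets, so these differences are not independent of the gate. The Ccl5 difference is not taken as independent of the gate either. The count of calls given below includes Cxcl10, Cxcl9 and Ccl5.

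Other ligands moved less in these cells. Ccl2 had 878 and 1103 CPM (1.07 ± 0.10, adjusted p = 2.17e-05), Ccl7 672 and 635 CPM (0.54 ± 0.06, adjusted p = 9.76e-05), Cxcl5 441 and 573 CPM (0.90 ± 0.11, adjusted p = 0.000268), Cxcl12 141 and 436 CPM (0.48 ± 0.10, adjusted p = 0.00948), Cxcl1 93.6 and 162 CPM (0.35 ± 0.08, adjusted p = 0.0117) and Cxcl13 1.84 and 21.9 CPM (1.38 ± 0.26, adjusted p = 0.00575). Cxcl14 (17.9 and 14.5 CPM, -1.31 ± 0.16, adjusted p = 0.000272) and Ccl11 (965 and 1118 CPM, -0.47 ± 0.12, adjusted p = 0.0183) were lower. The mean of the 3 types gives each the same weight, and not every type lay on the same side. Cxcl5, Cxcl12 and Cxcl1 were below trophocyte-like cells in both libraries (587 and 734, 163 and 478 and 114 and 182 CPM), Ccl11 was above them (543 and 396 CPM), Ccl7 was below telocyte-like cells in the first library (707 CPM), Cxcl1 below other fibroblasts there (94.5 CPM) and Cxcl14 above trophocyte-like cells there (15.1 CPM). Of 22 rows tested, 11 were called, 9 higher and 2 lower, where 11.2% of all genes were higher and 6.65% lower, 17.8% in all (medians 0.45 and 0.00). Without the library as a block the count was 7, with Cxcl1, Cxcl13, Cxcl12 and Ccl11 lost (adjusted p 0.588, 0.53, 0.687 and 0.0911), and Ccl7 lost the call without the 6% of cells with most UMIs (0.0507).

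Contractile fibroblasts (69 and 47 cells, with Acta2 at 1603 and 1230 CPM but Myh11 at only 22.2 and 37.7 CPM) were higher in Ccl2, at 1222 and 1179 CPM against 331 to 614 CPM in the 3 large types (1.29 ± 0.10, adjusted p = 3.41e-05). They were lower in Ccl12 (2.97 and 4.57 CPM, -3.54 ± 0.49), Ccl8 (88.2 and 23.98 CPM, -2.06 ± 0.32), Ccl11 (543 and 644 CPM, -1.34 ± 0.13) and Cxcl12 (71.2 and 154 CPM, -0.85 ± 0.14). Ccl12 and Ccl8 were below each of the 3 types in both libraries. Ccl11 was at or above the 543 and 396 CPM of trophocyte-like cells, and Cxcl12 was above the 63.4 and 139.7 CPM of telocyte-like cells, so these are lower than the mean and not than every type. Ccl20 was called higher (46.7 and 18.3 CPM, 3.605 ± 0.39, adjusted p = 0.000341), but its UMIs came from 2 of 69 and 3 of 47 cells. Cx3cl1 was called at the edge (10.4 and 42.2 CPM, 1.21 ± 0.30, adjusted p = 0.0454). In all, 7 of 22 rows were called, 3 higher and 4 lower, where 2.37% of all genes were higher and 2.38% lower, 4.75% in all (medians -0.27 and -0.03). Without the library as a block Cxcl12 and Cx3cl1 lost the call (adjusted p 0.623 and 0.451). With the first library left out the untested difference of Ccl8 was -3.36 and that of Ccl20 3.003, and with the second left out that of Ccl8 was -1.44 and that of Cx3cl1 0.54.

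The small classes of the stromal libraries were compared with all fibroblasts. Endothelial-like cells (22 and 65), which carried the lymphatic genes Lyve1 (1028 and 621 CPM) and Prox1 (287 and 193 CPM) beside Cdh5 (450 and 415 CPM), were set apart by Ccl21a, the ligand with which lymphatic vessels draw in dendritic cells and T cells through Ccr7. Ccl21a stood at 2078 and 2102 CPM in them against 0.26 and 1.05 CPM in fibroblasts (11.71 ± 0.40, adjusted p = 2.13e-13; untested, 10.88 without the first and 12.67 without the second library) and was found in 12 of 22 and 48 of 65 cells. The row that carries these UMIs is 1 of several with this symbol, and the separation of reads between them was not tested. Against fibroblasts, endothelial-like cells were lower in 12 ligands, Ccl12 (0 and 2.20 CPM, 20-fold with a 95% counting interval of 6.83 to 96.8), Ccl5 (0 and 2.20 CPM, 13.0-fold, 4.43 to 62.9), Cxcl14 (0 and 2.94), Cxcl12 (29.1 and 31.6), Cxcl5 (119.9 and 24.2), Ccl11 (105 and 128), Cxcl16 (3.63 and 6.60), Ccl8 (3.63 and 23.5), Ccl7 (105 and 40.4), Cxcl1 (29.1 and 22.7), Cxcl10 (10.9 and 30.8) and Cxcl2 (18.2 and 7.34 CPM), the last 10 by log2 differences of -3.55 to -1.78. The counting intervals treat UMIs as independent, but few of the interferon-responding fibroblasts held most of the Ccl5 UMIs of that type. With so few endothelial-like cells, the Ccl5 interval does not bound the difference. Ccl2, at 516 and 184 CPM, was not called (-0.79 ± 0.30, adjusted p = 0.0561). The 13 calls of 16 rows tested stand beside 32.1% of all genes called, 14.8% higher and 17.3% lower (medians -3.06 and -0.07). Rows pass the filter mainly through the class in which they are high, here mostly fibroblasts. The counts of lower ligands and the medians therefore hold for those rows and not for all 44. Without the second library, the untested difference of Cxcl2 was -0.56 rather than -1.78, that of Cxcl1 -1.80 rather than -2.64, that of Cxcl12 -2.26 rather than -3.45, that of Cxcl5 -1.92 rather than -3.43 (-4.53 without the first) and that of Ccl7 -2.05 rather than -2.85. That of Ccl8 was -5.57 rather than -3.28, and Ccl12, Ccl5 and Cxcl14 rest on a first library with no UMI. Cxcl10 (adjusted p = 0.108) and Cxcl2 (0.0546) lost the call with DESeq2, and Cxcl10 without the library as a block (0.058).

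Glia-like cells (58 and 65, Sox10 at 245 and 292 CPM) were higher than fibroblasts in Ccl8, Cxcl10 and Ccl2. Ccl8 had 2544 and 402 CPM (2.42 ± 0.48, adjusted p = 0.000664) and came from 27 of 58 and 15 of 65 cells, so the libraries differed by more than 6-fold. Cxcl10 had 460 and 426 CPM (2.09 ± 0.39, adjusted p = 0.000334), from 3 cells in the first library and 10 in the second. Ccl2 had 1132 and 954 CPM (0.93 ± 0.29, adjusted p = 0.0192) and was found in 41 of 58 and 39 of 65 cells. The 12 interferon markers summed to 932 and 1064 CPM in glia-like cells, near the 956.5 CPM of all fibroblasts in the second library and above the 249.6 CPM in the first. The 10 macrophage markers summed to 0 and 2.15 CPM with 10 and 9 of them at 0. All 3 calls were lost with DESeq2 (adjusted p 0.112, 0.103 and 0.171), Ccl2 under a stricter gate (0.40, adjusted p = 0.261), and Cxcl10 and Ccl2 without the library as a block (0.0834 and 0.0886). Without the first library the untested differences of Ccl8 and Cxcl10 were 0.92 and 1.02, and without the second 3.86 and 3.24. Glia-like cells were lower in 9 ligands, with Ccl5 at 0 (at least 6.83-fold), Cxcl16 at 0 and 2.15 CPM (48.9-fold, 95% counting interval 8.78 to 1930), Ccl12 at 0 and 6.45 CPM (10.5-fold, 3.61 to 51.2), Cxcl5 at 12.5 and 23.6, Ccl11 at 52.5 and 43.0, Cxcl1 at 4.998 and 8.60, Cxcl12 at 12.5 and 36.5, Cxcl2 at 4.998 and 12.9 and Ccl7 at 192 and 114 CPM. Their log2 differences ran from -4.88 (Cxcl5) to -1.56 (Ccl7) in the last 6. The limit given above for the Ccl5 interval applies to the Ccl5 bound here. Cxcl2 lost the call under a stricter gate (-1.07 rather than -1.78, adjusted p = 0.194) and with DESeq2 (0.0568), and was -2.41, untested, without the second library. The 12 calls of 16 rows stand beside 30.3% of all genes called, 15% higher and 15.3% lower (medians -2.64 and -0.06). These rows, too, mostly pass the filter through fibroblasts.

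Neuron-like cells (52 and 89, Elavl4 at 692 and 649 CPM) were lower in 13 ligands, Ccl5, Cxcl16, Ccl11, Cxcl5, Ccl12, Cxcl12, Cxcl1, Ccl7, Cxcl2, Ccl8, Cxcl14, Cxcl10 and Ccl2, Ccl5 with 1 UMI (47.1-fold, 95% counting interval 8.45 to 1860) and the others by log2 differences of -4.98 to -2.58. The limit given above for the Ccl5 interval applies here too. In neuron-like cells, Cxcl10 stood at 1.21 and 37.9, Ccl8 at 44.9 and 13.8, Cxcl14 at 7.29 and 0.86, Cxcl2 at 1.21 and 5.17 and Cxcl16 at 0 and 3.45 CPM. Without the second library the untested differences of Cxcl10, Ccl8, Cxcl14 and Cxcl2 were -5.26, -1.97, -1.87 and -4.40, against -2.68, -3.15, -3.11 and -3.22 with both. That of Cxcl16 was -9.77 rather than -4.98, resting on a first library with no UMI. Without the first, those of Ccl8, Cxcl14 and Cxcl2 were -3.95, -5.00 and -2.61, and Ccl8 lost the call with DESeq2 (adjusted p = 0.051). Most of the 16 rows tested pass the filter through fibroblasts. Neuron-like cells held 14 calls of the 16, beside 43.7% of all genes called, 22.4% higher and 21.3% lower (medians -3.43 and 0.01). Their Ccl11, at 37.7 and 62.0 CPM, and Ccl2, at 59.5 and 121 CPM, stand beside a sum of the 10 fibroblast markers of 759 and 739 CPM in the same cells against 8913 and 12425 CPM in fibroblasts, whose part in these levels was not tested. Ccl27a was higher in them, at 38.9 and 38.8 CPM against 11.5 and 11.4 CPM (1.63 ± 0.26, adjusted p = 3.79e-05), with the limits on its reads given above. Ccl25 was not called in any of the 3 classes, at 9.54 to 19.3 CPM against 11.3 and 8.90 CPM in fibroblasts.

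Macrophage-like cells were found in the assembloid epithelium libraries (191 and 199 cells, C1qa at 32.4 and 72.9 CPM over all cells) and were compared with the epithelial cells there. They were higher in the inflammatory CC ligands of myeloid cells. Ccl12 stood at 1685 and 2072 CPM against 13.1 and 3.10 CPM (7.92 ± 0.72, adjusted p = 0.000531), and Ccl6 at 1123 and 514 CPM against 8.24 and 4.91 CPM (6.69 ± 0.18, adjusted p = 9.34e-05). Ccl3 and Ccl4, macrophage inflammatory proteins, had 345 and 426 CPM (7.76 ± 0.57, adjusted p = 0.000294) and 763 and 779 CPM (6.99 ± 0.41, adjusted p = 0.000193). Ccl12 was found in 129 of 191 and 160 of 199 cells and Ccl4 in 117 and 146. After thinning to 2000 UMIs the shares with Ccl12 were 57.5% and 65.98%, against 0.80% and 0.59% of the fibroblasts and 2.76% and 0.86% of the epithelial cells of these libraries. Those with Ccl4 were 45.1% and 48.5%, against 0.96% and 0.20% of the fibroblasts and 1.665% and 0.61% of the epithelial cells. Median depths before thinning were 5537 and 12289 UMIs in macrophage-like cells, 6146 and 10769 in fibroblasts and 3439 and 13898 in epithelial cells. Ccl8 had 610 and 268 CPM (7.20 ± 0.64), Ccl2 584 and 627 CPM (5.83 ± 0.64), Ccl7 309.8 and 318 CPM (4.34 ± 0.39), Ccl5 293 and 197 CPM (6.69 ± 0.55) and Ccl9 217 and 199 CPM (5.81 ± 0.26), with adjusted p from 0.000121 to 0.001.

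Among CXC ligands, macrophage-like cells were higher in Cxcl2 (1128 and 749 CPM, 4.01 ± 0.23, adjusted p = 0.000191) and Cxcl16 (227 and 253 CPM, 2.27 ± 0.14, adjusted p = 0.000215), and in Cxcl3 (19.4 and 1.77 CPM, 3.92 ± 1.10, adjusted p = 0.0294) and Cxcl14 (20.2 and 15.3 CPM, 3.87 ± 1.00, adjusted p = 0.0221). Cxcl10 (66.3 and 71.3 CPM, 1.198 ± 0.48, adjusted p = 0.0854) and Cxcl1 (38.8 and 17.4 CPM, 0.39 ± 0.34, adjusted p = 0.381) were not called. Lower were Ccl20 (0 and 0.35 CPM, 11.7-fold with a 95% counting interval of 2.08 to 461), Cx3cl1 (0 and 1.42 CPM, -3.27 ± 0.73, adjusted p = 0.0133) and Ccl28 (-1.96 ± 0.46, adjusted p = 0.0162). The 26 rows tested held 16 calls, 13 higher and 3 lower, where 21.5% of all genes were higher and 26.5% lower, 48% in all. Medians were 2.43 and -0.21, the latter -0.08 under another scaling. Rows pass the filter mainly through the class in which they are high, so these values hold for the tested rows only. Ccl28 lost the call with DESeq2 (adjusted p = 0.0545) and Ccl20 under a stricter gate (0.0763). Without the first library the untested differences were larger for Cxcl14 (5.62), Ccl12 (9.36), Ccl2 (7.22), Ccl3 (8.91), Ccl4 (7.81), Ccl8 (8.04) and Ccl7 (5.17), and smaller for Cxcl3 (1.88). Without the second library they were smaller for Cxcl14 (3.24), Ccl12 (7.01), Ccl2 (5.10), Ccl3 (7.04) and Ccl28 (-1.28), and larger for Cxcl3 (5.20). That of Cx3cl1 was -2.48 without the first, and the second left out leaves it with no macrophage UMI. The 10 epithelial markers summed to 1877 and 2006 CPM in these cells against 13669 and 16439 CPM in epithelial cells.

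The lists of chemokine receptors (18 genes), atypical receptors (5), chemokines under other symbols (2), proteases that cut chemokines and proteoglycans that hold them (8) and inflammatory companions (15 NF-kB responders, cytokines and adhesion molecules) were read in the same fits, and a log2 fold change against a group near 0 depends on few counts. The shares called over all genes are those given above for each comparison. The lists were chosen with earlier results of these data known, and genes low in 1 group pass the filter through the others. Counts over a list are therefore descriptions and not a test of the list. Between assembloid and tissue epithelium, 13 of 14 companions tested were higher and none lower, where 26.6% of all genes were higher and 22.9% lower. Among the 13 were Nfkbia, the NF-kB inhibitor (2.998 ± 0.31), Tnf (4.44 ± 0.30), Icam1 (2.53 ± 0.23), Tnfaip3 (2.35 ± 0.21), Csf1 (2.68 ± 0.40) and Lif (2.28 ± 0.38). On low tissue counts they were Ptgs2 (10.67), Lcn2 (14.38), Saa3 (10.24), Il6 (10.46), Il1b (7.42), Il1a (4.36) and Vcam1 (4.03). Of the 13, 7 (Il1b, Il1a, Vcam1, Saa3, Ptgs2, Il6 and Icam1) were also called higher in the macrophage-like than in the epithelial cells of the assembloid libraries, and the fibroblast markers moved with this comparison as given above. The part of transcripts from those cells was not tested. Of 9 receptors tested, Cx3cr1 (5.72 ± 0.33), Cxcr2 (6.35 ± 0.96) and Cxcr5 (4.32 ± 0.81) were higher and Cxcr6 lower (-1.51 ± 0.50), and of 3 atypical receptors Ackr3 was lower (-2.33 ± 0.48). Dpp4, the peptidase that trims Cxcl10 and Cxcl12, had 43.8 and 40.1 CPM in tissue and was lower (-5.51 ± 0.57). Mmp9 (13.44), Mmp2 (6.76), Sdc1 (1.62) and Adam10 (0.90) were higher, 5 calls of 8 beside 49.6% of all genes, as was Pf4 (3.28 ± 0.59), which stood at 0.80% and 0.48% of its macrophage level and is 1 of the macrophage genes above.

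In organoids against tissue, 7 of 14 companions were higher, Icam1 (3.67 ± 0.24), Tnf (3.64 ± 0.29), Csf1 (2.05), Lif (2.07), Nfkbia (0.86), Ptgs2 (7.05) and Saa3 (4.49), and Nfkbiz was lower (-1.67 ± 0.23). No receptor was higher, and Cx3cr1 (-1.66), Ccr1 (-4.61), Ccr10 (-2.07), Ackr3 (-3.73), Ackr4 (-1.83), Dpp4 (-6.68) and Hspg2 (-1.02) were lower. In organoids against assembloids only Icam1 of the lists was higher (1.13 ± 0.21). Lower were 10 companions (Il1b -10.66, Lcn2 -6.77, Il6 -5.78, Saa3 -5.75, Ptgs2 -3.62, Il1a -3.10, Tnfaip3 -2.35, Nfkbia -2.14, Nfkbiz -2.11 and Tnf -0.80), receptors (Cx3cr1 -7.37, Ccr1 -6.27, Cxcr2 -3.94 and Cxcr5 -2.86), Ackr3 (-1.40), Ackr4 (-1.14), Pf4 (-3.39) and 5 proteases and proteoglycans (Mmp9 -9.15, Mmp2 -8.66, Sdc1 -1.66, Hspg2 -1.05 and Adam10 -0.83). In stromal fibroblasts against assembloid epithelium, Ackr1 (5.94), Ackr3 (5.81) and Ccrl2 (2.49), Vcam1 (5.41), Csf1 (4.74), Saa3 (3.39), Il6 (2.99), Csf3 (2.95), Icam1 (2.77), Lif (1.75), Mmp2 (5.66), Hspg2 (3.68), Adam17 (0.78) and Ccr7 (4.39) were higher. Lower in fibroblasts were Tnf (-8.36), Il1b (-4.81), Il1a (-3.65), Tnfaip3 (-2.74), Nfkbia (-1.85), Nfkbiz (-1.10), Cxcr5 (-7.55), Ccr4 (-5.03), Cxcr6 (-4.77), Ccr9 (-3.67), Cxcr4 (-2.55), Cx3cr1 (-0.91), Pf4 (-3.30), Dpp4 (-2.58), Adam10 (-1.58) and Sdc1 (-0.92).

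Between the fibroblast types, Ackr3, a scavenger of Cxcl12, had 91.4 and 95.3 CPM in telocyte-like against 12.7 and 10.0 CPM in trophocyte-like cells (-3.01 ± 0.10, adjusted p = 2.42e-08), the reverse of the order of Cxcl12. Ackr4, a scavenger of Ccl19, Ccl21 and Ccl25, was higher in trophocyte-like cells (14.7 and 3.47 against 3.29 and 1.58 CPM, 1.82 ± 0.27), as were Ccrl2 (0.92), Il6 (2.43 ± 0.20), Vcam1 (1.95 ± 0.12), Nfkbiz (0.76), Csf1 (0.74), Lif (0.60), Saa3 (0.54), Icam1 (0.50), Hspg2 (0.53) and Sdc4 (0.27). Mmp9 (-3.54), Sdc1 (-1.58), Mmp2 (-0.54), Adam10 (-0.26) and Ptgs2 (-0.54) were lower. Thus 7 of 12 companions were higher and 1 lower. Interferon-responding cells were higher in Ccrl2 (2.37 ± 0.19), Il6 (1.47), Vcam1 (1.08), Csf1 (0.88), Lif (0.64), Saa3 (0.49), Nfkbiz (0.40) and Hspg2 (0.43) and lower in Ackr3 (-0.59) and Cx3cr1 (-0.44). Contractile cells were higher in Il6 (1.21) and Sdc4 (0.35) and lower in Mmp2 (-1.09), Saa3 (-0.74), Cx3cr1 (-0.60) and Sdc1 (-0.50).

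In the small stromal classes, Ackr2, the decoy receptor of inflammatory CC ligands on lymphatic endothelium, stood at 65.4 and 19.8 CPM in endothelial-like cells (10.84 ± 0.90, adjusted p = 6.03e-08). Ackr1, which binds both CC and CXC ligands, was at 19.99 and 25.8 CPM in glia-like cells (6.14 ± 0.74) and 6.07 and 1.72 CPM in neuron-like cells (3.40 ± 0.97). Of 10 companions tested, 8 were lower in endothelial-like cells (Saa3 -4.55, Vcam1 -3.46, Ptgs2 -3.08, Il6 -3.07, Lif -2.67, Csf1 -2.62, Icam1 -1.84 and Nfkbiz -1.60) and Nfkbia (1.23) and Lcn2 (0.81) were higher. Of the same 10, 8 were lower in glia-like cells (Lcn2 -5.93, Icam1 -5.72, Saa3 -5.06, Ptgs2 -4.42, Il6 -3.65, Csf1 -2.39, Vcam1 -1.75 and Nfkbiz -1.62). In the same way, 9 were lower in neuron-like cells (-3.82 to -1.39, all but Vcam1). Further calls were Adam10 (1.84), Hspg2 (0.72), Mmp2 (-2.95), Sdc4 (-2.76) and Sdc1 (-1.71) in endothelial-like cells. In glia-like cells they were Adam10 (2.70), Hspg2 (1.42), Mmp2 (-2.13), Ackr3 (-2.57) and Cx3cr1 (-3.51). In neuron-like cells they were Mmp2 (-3.48), Hspg2 (-2.005), Ackr3 (-1.79), Sdc4 (-0.97), Adam17 (-0.92) and Sdc1 (-0.88). Macrophage-like cells carried Ccr1, a receptor for ligands they make, at 145 and 92.6 CPM (7.41 ± 0.24), with Cxcr4 (6.99 ± 0.52) and Cxcr5 (2.88 ± 0.42) also higher. They were also higher in Pf4 (4219 and 1988 CPM, 7.08 ± 0.38), Ppbp (7.50), Ccrl2 (6.13), Mmp9 (8.06), Adam17 (2.86), Il1b (7.97), Il1a (7.43), Vcam1 (4.58), Saa3 (4.25), Csf3 (3.58), Ptgs2 (3.34), Il6 (2.54), Icam1 (2.33) and Nfkbiz (0.72), and lower in Sdc1 (-2.75) and Adam10 (-0.55).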

How the data were processed

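Single-cell RNA-seq libraries (10x Genomics 3' chemistry) of 4 groups, 2 libraries each, were used as deposited. The authors deposited raw counts, whole-number UMI counts per gene and cell barcode, made with Cell Ranger against mm10; the submitters' notes name version 6, and the matrix headers name 6.0.1 (stroma) and 7.1.0 (epithelium). Whether intronic reads were counted is not given in the sources used here. No column of values belonged to a sample outside the series (0 columns).

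Barcodes under 500 genes or above 10% mitochondrial UMIs were dropped in all libraries. The study states this limit for stroma; here it left fewer tissue and organoid cells and more assembloid cells, epithelial and stromal, than the study analysed, so the cell sets are not the same. Marker scores above 0.20 and 1.5 times the next class gave the classes, with 0.30 for interferon-responding fibroblasts, 0.20 and 1.2 times for fibroblast types, and an excess of 0.20 over the library median for epithelial subtypes. These thresholds were set after marker levels had been seen, no chemokine is a marker, and the chemokine set and all lists were chosen with earlier results of these data known. No doublet caller was run; instead the 6% of cells with most UMIs were left out as an alternative.

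UMIs were summed per library and class, and tested with edgeR 4.0.16 (R 4.3.3; quasi-likelihood test, TMM scaling, filterByExpr, Benjamini-Hochberg adjustment over all genes tested, threshold 0.05). The 3 epithelial groups shared 1 fit. In every fit, rows pass the filter mainly through the group or class in which they are high, so counts hold for the rows tested. Classes of the same libraries were compared with the library as a block, since they come from the same capture. The other groups were fitted without a block, since the labels do not say whether replicate numbers pair them. Correlations of the deviations of same-numbered libraries were -0.015 to 0.041, which cannot exclude a shared animal or batch. Every chemokine called is named with values, as are those at 10 CPM or more and the called genes of the lists; other genes are counted. A gene of the receptor list is not reported here. Alternatives were DESeq2 1.42.0, other scaling, no filter on low counts, other cell filters and gates, with or without the block, and leaving out each library. On simulated counts with 200 genes changed 4-fold, edgeR recovered 94% for assembloid against tissue epithelium (19175 genes, 12 false calls). It recovered 100% for the fibroblast types (13459 genes, 10 false calls), 93.5% for stromal fibroblasts against epithelium (10), 91% for endothelial-like (17) and 90% for macrophage-like cells (14). DESeq2 recovered 82.5% to 100%. All genes were drawn with the same dispersion (0.05), and genes of low count were not changed, so these shares do not hold for low ligands. Shares of cells were also taken after thinning to 2000 UMIs. Poisson-based 95% intervals, counting intervals of ratios and floors of 3 UMIs cover counting error only. They treat UMIs as independent and are too narrow where few cells hold most of a ligand's UMIs. Gene positions are from GENCODE M21 and promoters from RefSeq, both on GRCm38. Python 3.11.15 was used for the rest.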

Additional observations from a re-analysis of the deposited data

Results flagged for a closer look

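In classes not used in the comparisons above, some ligands stood at 5 times or more their level in the main class of the library, with over 3 UMIs in each library. The 4 and 4 macrophage-gated cells of the stromal libraries had Ccl12 at 1301.9 and 2900.3, Ccl3 at 235.6 and 650.4, Ccl4 at 173.6 and 1162.2, Ccl6 at 1934.2 and 74.6, Ccl8 at 4017.3 and 1514.1 and Ccl9 at 880.3 and 138.6 CPM. The 3 and 2 macrophage-gated cells of tissue epithelium had Ccl9 at 550.8 and 605.3 CPM. The epithelial-gated cells of the stromal libraries (63 and 34) had Ccl6 at 38.0 and 10.2 CPM and Ccl9 at 20.3 and 21.3 CPM. The 4 and 4 lymphocyte-gated cells of tissue epithelium had Ccl5 at 4073.3 and 2920.0 CPM, which is 95.2% and 84.4% of that library's Ccl5 UMIs, and Xcl1, a ligand of cross-presenting dendritic cells made by T and NK cells, at 293.0 and 567.8 CPM, 90.9% and 95.5% of its UMIs. None of these was tested, and each rests on few cells.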

How the results depend on the processing

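There were 172 called chemokine differences and 2094 values under alternatives. Of these values, 1933 kept direction and either kept the call or, where no test was possible, stayed within 1 SD. The SD is that of the values left when each library was dropped, only 2 for comparisons within libraries, so it separates little. A further 109 lost the call, 52 without a test moved by more than 1 SD, and 0 changed sign. For interferon-responding fibroblasts, 7 chemokines rather than 11 were called with no replicate block (6 higher, 1 lower). For contractile fibroblasts, 12 rather than 7 were called with no filter on low counts (6 higher, 6 lower). The other counts stayed within 1.5 times of their values. Leaving out 1 library gave 21 to 25 calls for assembloid against tissue epithelium, 12 to 16 for organoid against tissue, 17 to 22 for organoid against assembloid and 17 to 20 for stromal fibroblasts against assembloid epithelium. Comparisons of classes within libraries have no residual degrees of freedom without 1 library and were then values with no test. These values are differences of log2 CPM with a prior count and no TMM scaling. Their distance from the fitted values therefore mixes the library left out with the method, most at low counts. With the replicate number as a block, the group comparisons gave 25, 16, 21 and 22 calls, and whether the numbers pair these libraries is not known. With 2 libraries a group, and classes of 22 to 89 cells in the smallest comparisons, differences in low ligands are poorly determined.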

Other observations

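Squamous-gated cells of the stromal libraries (799 and 37) carried Cxcl15 at 9.94 and 0.86 CPM, 204 UMIs and 1 UMI, against 0.365 and 0.105 CPM in fibroblasts and 16.2 and 0.93 CPM (32 UMIs and 1 UMI) in the 63 and 34 epithelial-gated cells there, and 64 of the 799 cells of the first library had at least 1 UMI. They had Cxcl16 at 41.3 and 84.7, Cxcl2 at 15.4 and 63.1 and Ccl20 at 2.00 and 44.9 CPM, the last from 8 of 799 and 2 of 37 cells. The first library held most of these cells, so no comparison between the libraries was made.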
